A study of Homo sapiens with 8 samples.

Results

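The 10 genes followed here in NB4 cells belong to serine synthesis and to the ATF4 transcription programme: ATF4 itself, the serine enzymes PHGDH, PSAT1 and PSPH, the mitochondrial folate enzymes SHMT2 and MTHFD2, the asparagine synthetase gene ASNS, the pseudokinase gene TRIB3, and the transporter subunits SLC7A5 and SLC3A2. They were chosen as a named set, with earlier results of these data known. All 10 are among the 22627 gene symbols of the deposited tables and among the 11052 genes that were compared, whose mean across groups reached 1 FPKM. FPKM corrects fragment numbers for transcript length and sequencing depth, so levels of different genes can be set side by side per length.

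NB4 is an established human line of acute promyelocytic leukaemia with the PML-RARA fusion, and it matures along the granulocytic path with all-trans retinoic acid (ATRA). Cells infected with lentivirus expressed either a scrambled hairpin (shScr) or a hairpin against the lysosomal transcription factor gene TFEB (shTFEB), and were kept for 72 h in ethanol (vehicle) or in 1 µM ATRA. Each of the resulting 4 groups has 2 samples in the labels, which call them biological replicates. Titles of both shScr ATRA samples also say vehicle, and their descriptions and treatment field were followed. All groups carry a lentiviral hairpin, and parental cells were not analysed here. Each deposited table gives 1 FPKM per transcript model and group with a lower and an upper bound, so that neither the spread between the 2 samples nor a test can be had, no p-value is given, and every difference below is a ratio of 2 values without a replicate check. In these bulk values fewer cells of a kind and less RNA per cell cannot be told apart.

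Under ATRA, TFEB mRNA stood at 19.4 FPKM with the scrambled hairpin and 8.44 FPKM with the TFEB hairpin, 43.6% of the shScr level. Under vehicle it was 1.203 FPKM in shScr cells and 1.35 FPKM in the group labelled shTFEB (113%), with overlapping bounds, so the knockdown is not seen there and comparisons of the vehicle groups below are comparisons of labels. Sequencing depth of the other groups was 0.911 to 1.17 times that of shScr vehicle, from the upper bounds of 13315 models that all tables list at 0. Of 11 markers of promyelocytic cells 9 reached 1 FPKM in some group, with ELANE and KIT at or near 0 in all of them. The summed level of 6 granulocyte maturation markers was 54.5 and 46.9 FPKM under vehicle (shScr, shTFEB) and 1810 and 922 FPKM under ATRA, so these markers moved with every ATRA comparison below, and their part in the values was not tested. Of the lymphoid and erythroid markers only CD3D reached 1 FPKM, and of the non-blood markers KRT18 and EPCAM did. PECAM1, which was listed with the latter but is not confined to non-blood cells, also did. It stood at 1.56 and 8.59 FPKM in shScr cells and at 2.25 and 8.23 FPKM in shTFEB cells (vehicle, then ATRA).

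ATF4 is a bZIP transcription factor whose protein is made chiefly when the initiation factor eIF2 is phosphorylated, as in amino acid shortage or stress of the endoplasmic reticulum. Its output is therefore set largely at translation, and its mRNA level need not follow its activity. With a C/EBP partner it binds composite C/EBP-ATF elements and switches on genes that take up amino acids, make serine, glycine and asparagine, and pass one-carbon units to folate. Serine made from glycolytic 3-phosphoglycerate feeds purine and thymidylate synthesis in dividing cells, and leukaemic blasts with low ASNS are the classical target of asparaginase. TFEB and its relative TFE3 have been linked to ATF4 induction under starvation.

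The letters of elements that such factors bind occur near the starts of some of these genes. Promoter windows of RefSeq (GRCh38.p14, 250 bases before to 50 after a transcription start) were available for 8 of the 10 genes in 14 windows; PSPH and SHMT2 had none. Searched on both strands for the C/EBP-ATF core TGATGNAA, for the E-box CACGTG that both MYC and TFEB can bind, for its extended lysosomal form known as CLEAR (which contains the E-box) and for the cAMP element TGACGTCA, the windows gave the 4 matches printed here 5′ to 3′ on the gene's strand, with the match in capitals, because they show what the starts of these genes hold before their levels are given.
ASNS (chr7:97872453-97872492, minus strand, match starting 68 bases before the start): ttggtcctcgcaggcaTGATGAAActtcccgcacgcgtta
SLC3A2 (chr11:62881720-62881748, plus strand, antisense match 37 bases after the start): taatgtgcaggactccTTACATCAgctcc
ATF4 (chr22:39520461-39520498, plus strand, match 82 or 85 bases before the start, by window): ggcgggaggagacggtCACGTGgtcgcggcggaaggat
SLC7A5 (chr16:87869616-87869653, minus strand, match 130 bases before the start): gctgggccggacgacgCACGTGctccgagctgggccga
The C/EBP-ATF core was thus found in ASNS and SLC3A2, 2 of 8 genes, where 2.51% of the 8721 compared genes with a window hold it. The set was chosen in part for known ATF4 targets, so that share is a description of the set. The E-box was found in ATF4 and SLC7A5, again 2 of 8, against 13.0% of compared genes. No window of the 8 held the CLEAR form (0.952% of compared genes) or the cAMP element (3.92%). A match is a run of letters and not evidence of binding, and the other windows lack only these letters.

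**Figure D1:**
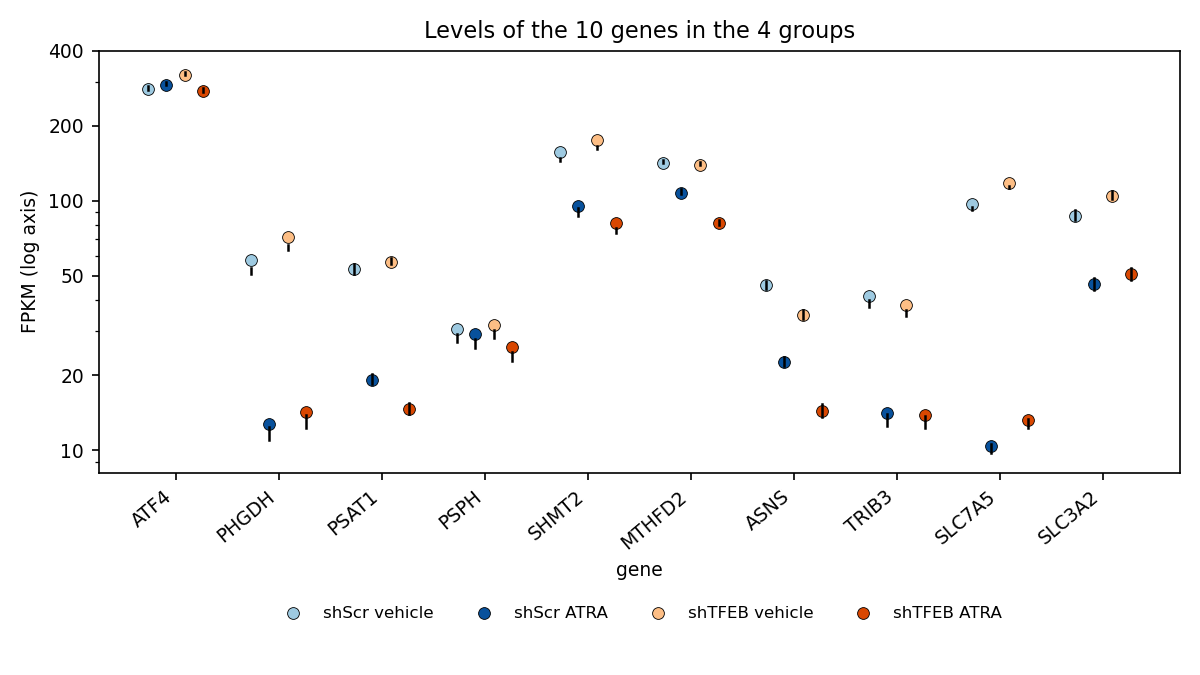
FPKM (log axis) of the 10 genes in the 4 groups, 1 point per group, with black lines for the deposited lower and upper bounds. ATF4 lies at 275 to 319 FPKM in every group, whereas SLC7A5, PHGDH, PSAT1 and TRIB3 lie at 10.4 to 19.2 FPKM in both ATRA groups.

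Vehicle-treated cells of both lines expressed all 10 genes. In shScr vehicle the levels ran from 30.7 FPKM for PSPH to 279.7 FPKM for ATF4, a 9.11-fold span, in the order ATF4, SHMT2, MTHFD2, SLC7A5, SLC3A2, PHGDH, PSAT1, ASNS, TRIB3, PSPH. The bounds of SHMT2 and MTHFD2, and those of PHGDH and PSAT1, overlapped, and those of the other neighbours in that order did not. Under ATRA the span in shScr cells was 27.9-fold, with SLC7A5 now lowest at 10.4 FPKM and ATF4 still highest at 291 FPKM, while PSPH was no longer last, at 29.2 FPKM. In shTFEB ATRA the lowest 5 genes (PSAT1, ASNS, PHGDH, TRIB3 and SLC7A5) lay between 13.2 and 14.7 FPKM, and each overlapped its neighbour. The deposited bounds describe the estimate of 1 table and do not always enclose its FPKM: 19 of the 40 values of these genes lie outside them, 18 of them above. They are used here as deposited. In the hg19 coordinates of the tables, PHGDH lies on chromosome 1 (120254419 to 120286849), PSAT1 on 9 (80912059 to 80945009), PSPH on 7 (56078744 to 56119268), SHMT2 on 12 (57623356 to 57628718) and MTHFD2 on 2 (74425690 to 74442424). ASNS lies on chromosome 7 (97481429 to 97501854), TRIB3 on 20 (361308 to 378203) and SLC3A2 on 11 (62623484 to 62656355); the promoter coordinates above are of GRCh38.p14 and not comparable.

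ATF4 mRNA (hg19 chromosome 22, 39916569 to 39918691) was abundant and nearly level. It stood at 279.7 FPKM (vehicle) and 291 FPKM (ATRA) in shScr cells, and at 319 FPKM and 275 FPKM in shTFEB cells. The log2 ratio of ATRA to vehicle, taken after adding 1 FPKM to both values as throughout, was 0.057 in shScr and −0.22 in shTFEB cells. In each line the vehicle and ATRA values lie within 1.16-fold of each other, and no comparison came near the mark used below. Of its 2 models only NM_182810 is listed above 0.

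Rise and fall are used here for log2 ratios of at least 1 in size, a 2-fold mark that is not a test. By that mark 4 of the 10 genes fell under ATRA in shScr cells, where 15.2% of all compared genes did, and 7 of the 10 in shTFEB cells, where 10.5% of all did. No member rose in either line (12.5% and 11.5% of all genes), and 27.7% and 22.0% of all genes passed the mark in one direction or the other. The median log2 ratio of the 10 was −0.95 in shScr and −1.16 in shTFEB cells, beside −0.15 and −0.13 for all compared genes. PHGDH, PSAT1, TRIB3 and SLC7A5 fell in both lines, and ASNS, SHMT2 and SLC3A2 passed the mark in shTFEB cells alone. That last contrast rests on the position of the mark: in shScr cells the same 3 genes had log2 ratios of −0.99, −0.70 and −0.90, and the difference of the responses passed 1 for none of them. Deposited bounds of vehicle and ATRA did not overlap for 9 of the 10 genes in shScr and for all 10 in shTFEB cells, but that holds for 81.1% and 77.9% of all compared genes as well.

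**Figure D2:**
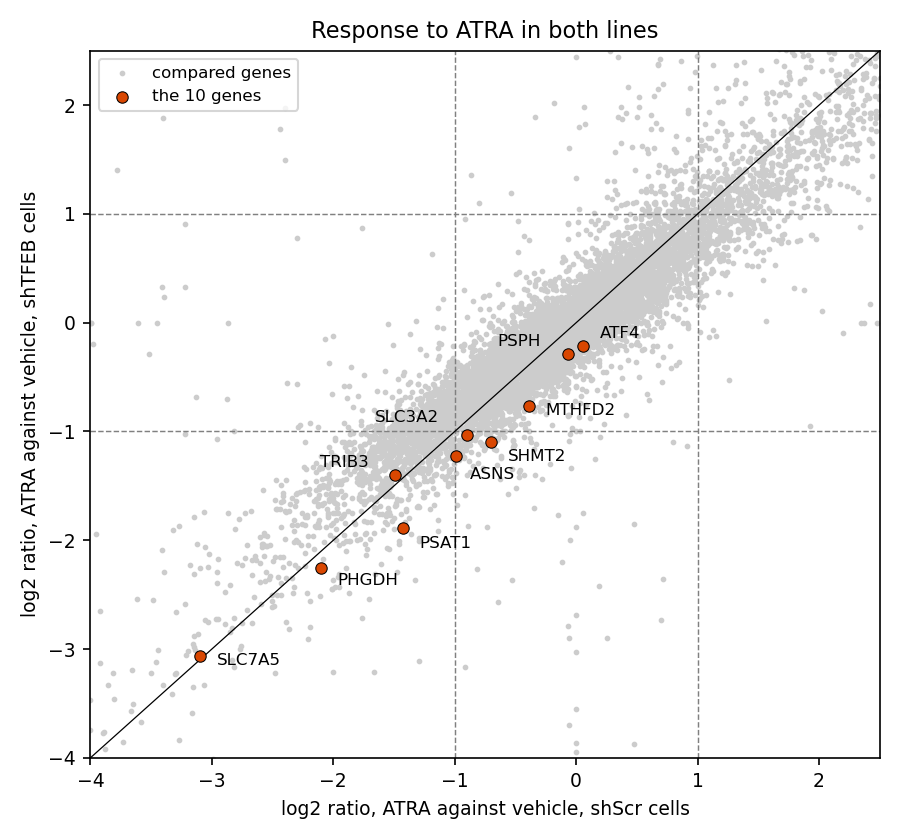
Log2 ratio of ATRA to vehicle in shScr cells (horizontal) and in shTFEB cells (vertical) for all compared genes (grey) and the 10 genes (orange). Dashed lines are the 2-fold mark and the diagonal is an equal response; genes beyond the axes are not drawn. SLC7A5 (−3.10, −3.07) lies close to the diagonal, on a side that depends on the scaling and the pseudocount, and 8 of the 10 genes lie below it (7 with the most abundant model alone, where SHMT2 is above).

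SLC7A5, the light chain of the transporter LAT1 that carries leucine and other large neutral amino acids, had the steepest fall. It stood at 97.0 FPKM in shScr vehicle and 10.4 in shScr ATRA, and at 118 FPKM in shTFEB vehicle and 13.2 in shTFEB ATRA. These are 9.30-fold and 8.95-fold falls (log2 ratios −3.10 and −3.07), and only 105 and 87 of the 11052 compared genes had a lower ratio. The gene (hg19 chromosome 16, 87863629 to 87903100) has a near-identical partial copy, SLC7A5P2, at 1.27 to 3.84 FPKM in the 4 groups, and how fragments were split between them is not stated. MYC stood at 279 FPKM and 25.6 FPKM in shScr cells and at 270.5 FPKM and 54.6 FPKM in shTFEB cells (vehicle, then ATRA). Under ATRA the shTFEB value was thus 2.13-fold the shScr value for MYC and 1.27-fold for SLC7A5.

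SLC3A2 encodes the heavy chain (CD98) that brings SLC7A5 and other light chains to the cell surface. Its level was 87.2 FPKM in shScr vehicle and 46.3 in shScr ATRA, and 104.7 FPKM in shTFEB vehicle and 50.7 in shTFEB ATRA, ratios of 0.531 and 0.484. The heavy chain thus changed less than its light chain, and with all models summed it passed the mark in shTFEB cells alone. With coding models alone it also passed in shScr cells (log2 ratio −1.47). SLC7A5 mRNA was 1.11 times the SLC3A2 level in shScr vehicle and 1.13 times in shTFEB vehicle, and 0.225 and 0.261 times under ATRA. The SLC3A2 levels under ATRA include 15.3 FPKM (shScr) and 16.1 FPKM (shTFEB) of a noncoding model listed at 0 under vehicle.

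PHGDH opens the serine pathway by oxidising 3-phosphoglycerate and is its committed step. It stood at 57.9 FPKM in shScr vehicle and 12.7 in shScr ATRA, and at 71.6 FPKM and 14.2 FPKM in the matching shTFEB groups. Both ATRA values lie far below both vehicle values, a 4.55-fold fall in shScr and a 5.05-fold fall in shTFEB cells (log2 ratios −2.10 and −2.26). Of the compared genes 2.59% and 1.57% had a lower ratio.

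PSAT1, the aminotransferase of the second step, followed. It stood at 53.2 FPKM in shScr vehicle and 19.2 in shScr ATRA, and at 56.8 FPKM and 14.7 FPKM in the matching shTFEB groups. The falls were 2.77-fold and 3.87-fold (log2 ratios −1.43 and −1.88), the latter the larger, and PSAT1 had the lowest difference of responses of the 10 genes (−0.46).

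PSPH, the phosphatase that releases serine in the third step, passed the mark in no comparison. It stood at 30.7 FPKM (vehicle) and 29.2 FPKM (ATRA) in shScr cells, and at 31.8 FPKM and 25.8 FPKM in shTFEB cells. The log2 ratios of −0.07 and −0.29 lie far from the mark, and the shScr bounds overlapped; after median-of-ratios rescaling over compared genes or upper-quartile rescaling the shScr ratio was 0.11 or 0.01. PHGDH mRNA accordingly went from 1.89 times to 0.435 times the PSPH level in shScr cells, and from 2.25 times to 0.549 times in shTFEB cells. PSPH has a pseudogene copy, and whether fragments were shared with it is not given in the sources used here.

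A pair of mitochondrial enzymes carries the serine carbon into folate. SHMT2, which splits serine into glycine and a one-carbon unit, stood at 157 FPKM in shScr vehicle and 95.8 in shScr ATRA, and at 175 FPKM in shTFEB vehicle and 81.2 in shTFEB ATRA. It passed the mark in shTFEB cells (log2 ratio −1.10) and not in shScr cells (−0.70). MTHFD2, the methylene-tetrahydrofolate dehydrogenase next in line, stood at 142 FPKM in shScr vehicle and 108 in shScr ATRA, and at 139 FPKM in shTFEB vehicle and 81.2 in shTFEB ATRA. Its log2 ratios of −0.39 and −0.77 passed in neither line, and under ATRA it was 75.3% of the shScr level in shTFEB cells.

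ASNS, the asparagine synthetase whose promoter match is shown above, stood at 45.8 FPKM in shScr vehicle and 22.5 in shScr ATRA, and at 34.8 FPKM and 14.4 FPKM in the matching shTFEB groups. The response to ATRA was 2.03-fold down in shScr cells, just short of the mark once 1 FPKM is added (−0.99), and 2.43-fold down in shTFEB cells (−1.22). ASNS was the member that was lower in shTFEB than in shScr cells by most under both treatments, at 76.1% of the shScr level under vehicle and 63.7% under ATRA. The bounds did not overlap in either case, as for 36.8% and 54.8% of all genes, and of all compared genes 3.25% and 3.66% had a lower ratio. TFEB mRNA was not lower in the vehicle group labelled shTFEB.

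TRIB3, a pseudokinase that ATF4 induces and that damps ATF4 in turn, stood at 41.6 FPKM in shScr vehicle and 14.1 in shScr ATRA, and at 38.3 FPKM and 13.9 FPKM in the matching shTFEB groups. The falls were 2.95-fold and 2.76-fold, and the difference of the responses was 0.09. Its relatives TRIB1 and TRIB2 are given with the lists below.

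The tables assign fragments of PSAT1, SHMT2 and SLC3A2 to more than 1 model. SLC3A2 had 16.3% and 11.7% of its FPKM on 2 coding models (NM_001012662 and NM_002394) in shScr vehicle, and 14.4% and 11.9% in shTFEB vehicle, and both are listed at 0 in the ATRA groups. A noncoding model (NR_037193) appears there in their place, with 15.3 FPKM in shScr ATRA and 16.1 FPKM in shTFEB ATRA, and is listed at 0 under vehicle. The main model NM_001013251 stood at 62.9 and 31.0 FPKM in shScr cells and at 77.2 and 34.6 FPKM in shTFEB cells (vehicle, then ATRA). With coding models alone the log2 ratio of SLC3A2 in shScr cells was −1.47 and not −0.90, which is past the mark. SHMT2 was listed on 1 model (NM_005412) in 3 groups and, in shScr ATRA alone, on a second one (NM_001166359, 31.7 FPKM or 33.1% of the gene). Using its most abundant model instead of all models gives SHMT2 a log2 ratio of −1.28 in shScr cells, past the mark. PSAT1 had 13.5% of its level on the model NM_021154 in shScr vehicle and none elsewhere. All these models overlap at 1 locus per gene, and why their shares differ was not tested.

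**Figure D3:**
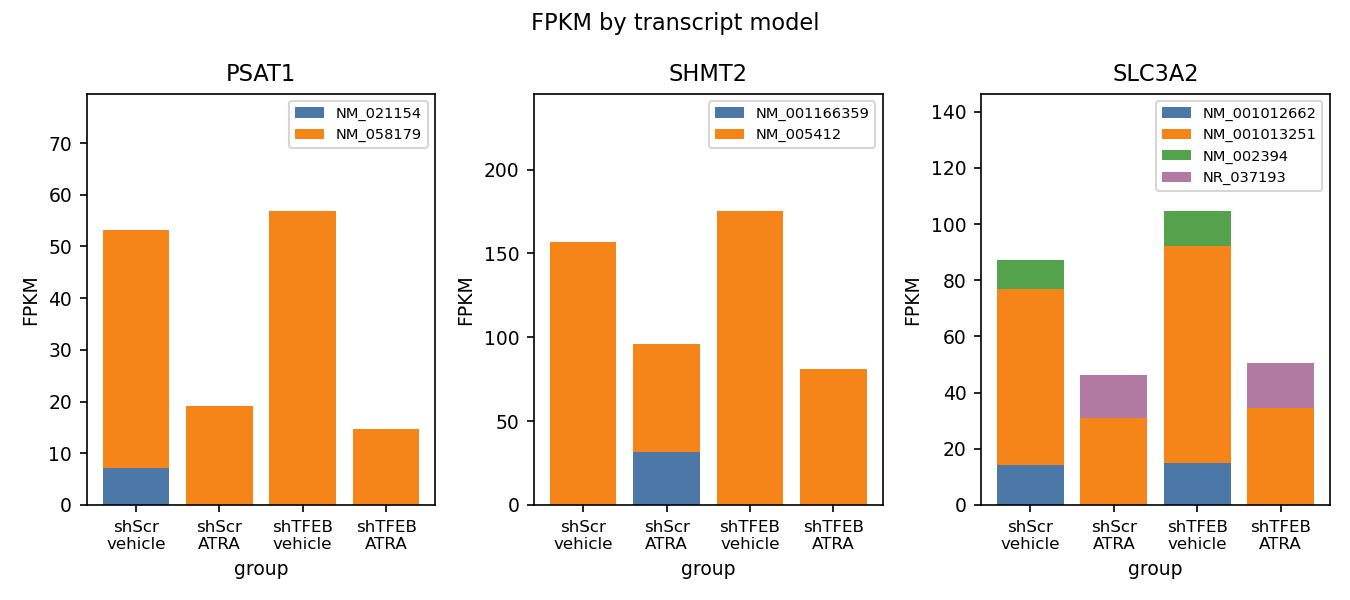
FPKM by transcript model, stacked, for PSAT1, SHMT2 and SLC3A2 in the 4 groups; bars start at 0 and models listed at 0 in every group are left out. The noncoding SLC3A2 model (15.3 and 16.1 FPKM) appears in the ATRA groups, and the second SHMT2 model (31.7 FPKM) in shScr ATRA.

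Between the hairpin lines no member passed the mark, under vehicle or under ATRA. Under vehicle 1.06% of all genes were higher and 0.787% lower in the group labelled shTFEB, which makes 1.85% in all. Under ATRA 2.67% were higher and 1.58% lower, 4.25% in all, so that 0 of 10 is near the background. Log2 ratios of shTFEB to shScr ran from −0.39 (ASNS) to 0.30 (PHGDH) under vehicle, with a median of 0.13, and from −0.62 (ASNS) to 0.31 (SLC7A5) under ATRA, with a median of −0.13; the medians of all genes were 0.02 and 0.06. Under vehicle 7 of the 10 genes were above 0 (PSPH at 0.05, and at −0.01 after median-of-ratios rescaling), and under ATRA 3, namely PHGDH, SLC7A5 and SLC3A2. SHMT2 (−0.23 under ATRA) was at 0.34 when only its most abundant model was used, which leaves 6 and not 7 genes below 0. The 4 comparisons share groups in pairs, so these values are not independent of the responses above.

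The difference of the responses, shTFEB minus shScr, was below 0 for 8 of the 10 genes and for 43.9% of all compared genes. It ran from −0.46 for PSAT1, through SHMT2 (−0.40) and MTHFD2 (−0.38), to 0.09 for TRIB3. With the most abundant model alone SHMT2 turned to 0.18, and 7 of the 10 genes were below 0. No member reached 1 in size, where 2.42% of all genes passed upwards and 1.86% downwards, 4.29% in all. SLC7A5 (0.03) was the other gene above 0, and its sign turned under upper-quartile rescaling (−0.02) and with a pseudocount of 5 FPKM (−0.03).

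The wider pathway was read from 7 gene lists. Without the 10 members, 123 genes of these lists were compared, of which 30 fell and 16 rose in shScr cells (24.4% and 13.0%, beside 15.2% and 12.5% of all genes) and 22 fell and 14 rose in shTFEB cells (17.9% and 11.4%, beside 10.5% and 11.5%). Their median log2 ratio was −0.49 and −0.38. Some genes stand in more than 1 list.

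Of 22 other genes of serine, glycine and one-carbon metabolism, 6 fell and 2 rose in shScr cells (median −0.62) and 4 fell and none rose in shTFEB cells (median −0.44). Beside these counts, 15.2% of all compared genes fell and 12.5% rose in shScr cells, and 10.5% and 11.5% in shTFEB cells. GCSH, a carrier protein of glycine cleavage, went from 50.3 to 5.29 FPKM in shScr and from 59.5 to 12.9 FPKM in shTFEB cells, and under ATRA its log2 ratio of shTFEB to shScr was 1.14. MTHFD1L, which releases formate from mitochondria, went from 21.2 to 4.65 FPKM and from 25.2 to 7.03 FPKM. The cytosolic folate enzyme MTHFD1 fell in shScr cells, from 74.5 to 19.9 FPKM (log2 ratio −1.85), and just missed the mark in shTFEB cells, from 69.9 to 34.6 FPKM (−0.99). GLDC and AMT, which are among the other subunits of glycine cleavage in the list, lay below 1 FPKM in every group.

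Other known ATF4 targets moved in both directions, as all compared genes did. Of 30 that were compared, 7 fell and 5 rose in shScr cells (median −0.34), where 15.2% of all genes fell and 12.5% rose. Of the same 30 genes, 7 fell and 3 rose in shTFEB cells (median −0.40), where 10.5% of all genes fell and 11.5% rose. The largest falls were in genes of amino acid synthesis and uptake: GPT2, which makes alanine, from 28.3 to 2.95 FPKM in shScr and from 33.1 to 3.999 FPKM in shTFEB cells, and PYCR1, the last enzyme of proline synthesis, from 33.3 to 4.98 and from 37.7 to 8.39 FPKM. SLC1A4, a carrier of serine and alanine, fell from 23.7 to 5.38 and from 18.8 to 2.67 FPKM. The largest rises were those of the C/EBP factor gene CEBPB, from 1.88 to 27.4 FPKM and from 2.42 to 28.5 FPKM, and the cytokine gene GDF15 from 0.0129 to 9.41 FPKM in shScr cells, with 0 and 4.55 FPKM in shTFEB cells. DDIT3, which encodes the stress factor CHOP, is listed at 0 in all 4 groups, and CHAC1 lay at or below 0.327 FPKM. Both are named after their values were seen. Other genes of these lists also have an exact 0 in all 4 groups, and whether it means no transcript was not tested. ATF5, a relative of ATF4, was the list's only gene past the mark between the vehicle groups, at 6.76 FPKM in shScr and 18.2 FPKM in the group labelled shTFEB, and stood at 23.1 and 26.7 FPKM under ATRA. DDIT4, an inhibitor of mTORC1, had a difference of responses of −1.16, with 24.1 and 28.5 FPKM in shScr and 41.6 and 21.3 FPKM in shTFEB cells.

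**Figure D4:**
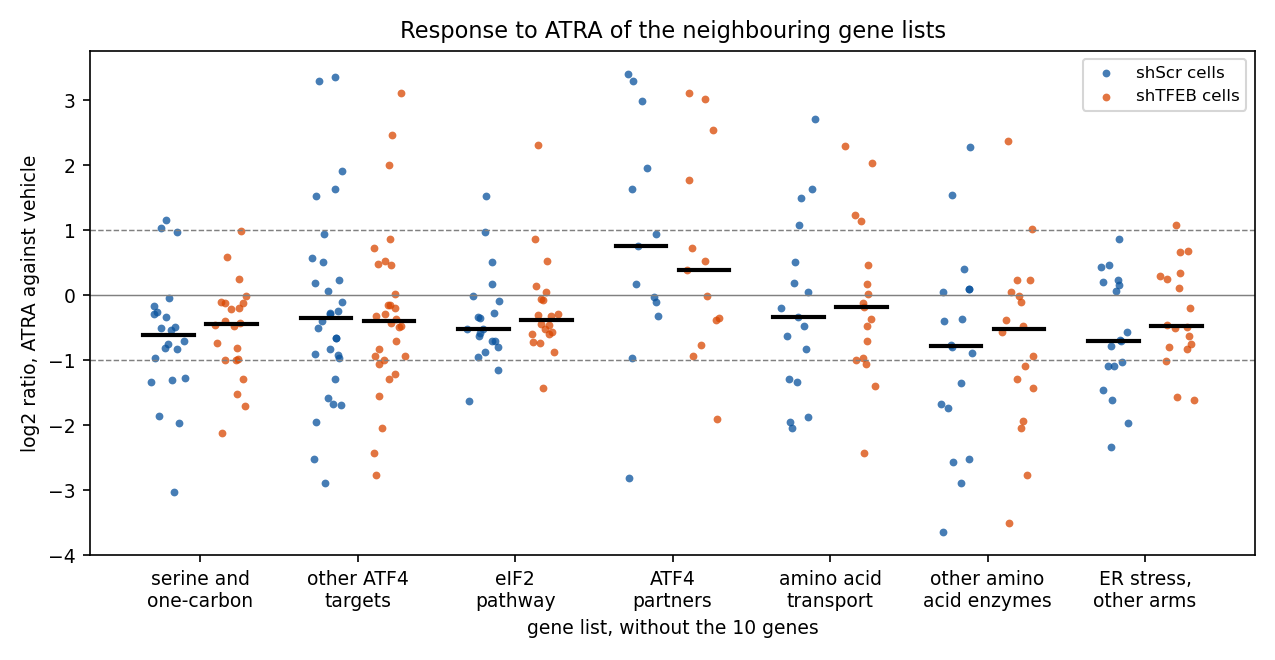
Log2 ratio of ATRA to vehicle for the compared genes of 7 lists, without the 10 genes, in shScr (blue) and shTFEB (orange) cells; points are genes, black bars are list medians and dashed lines the 2-fold mark. ATF4 partners have medians above 0 (0.76 and 0.39), and the other 6 lists below it.

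Of 13 partners and regulators of ATF4, 5 rose and 1 fell in shScr cells, where 12.5% of all genes rose and 15.2% fell, and 4 rose and 1 fell in shTFEB cells, where 11.5% rose and 10.5% fell. The list medians were 0.76 and 0.39, and no test was made of the difference from other genes. The C/EBP factors, which pair with ATF4 on the composite element, moved apart: CEBPE rose from 27.2 to 224 FPKM in shScr and from 32.3 to 193 FPKM in shTFEB cells, while CEBPA fell from 35.5 to 4.20 and from 34.8 to 8.61 FPKM. FOS rose from 1.08 to 21.1 and from 1.08 to 15.9 FPKM. TRIB1 stood at 3.85 and 17.9 FPKM in shScr cells and TRIB2 at 4.41 and 4.30 FPKM, so of the 3 Tribbles genes TRIB3 alone fell there.

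The eIF2 pathway, which gates ATF4 translation, had 2 of 20 genes down and 1 up in shScr cells (median −0.52) and 1 down and 1 up in shTFEB cells (−0.38). These counts lie below the shares of all compared genes, of which 15.2% fell and 12.5% rose in shScr cells. In shTFEB cells the shares were 10.5% and 11.5%. EIF2B3, a subunit of the exchange factor of eIF2, went from 18.3 to 5.29 FPKM and from 17.2 to 5.75 FPKM. PPP1R15A (GADD34), the phosphatase subunit that ends the response, rose from 3.86 to 13.0 FPKM in shScr cells and stood at 4.12 and 8.33 FPKM in shTFEB cells. EIF2AK2, which encodes the interferon-induced eIF2 kinase PKR, stood at 12.8 and 26.3 FPKM in shScr and at 12.6 and 66.4 FPKM in shTFEB cells. It was the list's only gene past the mark between the lines under ATRA (log2 ratio 1.30) and in the difference of the responses (1.33).

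Amino acid carriers other than the members split, with 5 of 17 down and 4 up in shScr cells and 3 down and 4 up in shTFEB cells. For all compared genes the shares down and up were 15.2% and 12.5% in shScr cells, and 10.5% and 11.5% in shTFEB cells. The glutamine carriers SLC38A1 and SLC38A5 fell in shScr cells, from 21.3 to 4.43 FPKM and from 42.6 to 10.8 FPKM. With the TFEB hairpin SLC38A1 also fell, from 29.4 to 10.6 FPKM (log2 ratio −1.39), and SLC38A5 went from 48.3 to 24.3 FPKM. Under ATRA both were above the shScr level in shTFEB cells (log2 ratios 1.09 and 1.10). SLC15A3, a lysosomal peptide and histidine carrier, rose from 0.155 to 6.58 FPKM and from 0.525 to 6.47 FPKM, and SLC43A2, a neutral amino acid carrier, rose from 2.03 to 8.46 FPKM and from 2.09 to 11.6 FPKM.

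Among 18 other enzymes of amino acid metabolism 7 fell and 2 rose in each line (medians −0.78 and −0.52). All compared genes had 15.2% down and 12.5% up in shScr cells, and 10.5% down and 11.5% up in shTFEB cells. ASS1, the argininosuccinate synthase, fell from 166 to 12.3 FPKM in shScr and from 150.4 to 12.4 FPKM in shTFEB cells, and BCAT1, which transaminates branched-chain amino acids, from 31.3 to 4.44 and from 21.2 to 4.80 FPKM. ASRGL1, an asparaginase, rose from 5.45 to 30.3 FPKM in shScr and from 4.75 to 28.8 FPKM in shTFEB cells (log2 ratio 2.38 in the latter). GLUL, the glutamine synthetase, stood at 62.6 FPKM in shTFEB ATRA and 27.6 FPKM in shScr ATRA (log2 ratio 1.15).

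Genes of the other arms of the endoplasmic reticulum stress response fell in 7 of 18 cases and rose in none in shScr cells (median −0.70), and fell in 3 and rose in 1 in shTFEB cells (−0.47). The shares of all compared genes that fell and rose were 15.2% and 12.5% in shScr cells, and 10.5% and 11.5% in shTFEB cells. The chaperone gene CALR went from 1740 to 343 FPKM and from 1882 to 614 FPKM, and XBP1, the factor of another arm, from 84.2 to 20.8 and from 82.5 to 27.1 FPKM. HSPA5 (BiP), the main luminal chaperone, was 259.6 FPKM in shTFEB ATRA and 126 FPKM in shScr ATRA (log2 ratio 1.03).

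Profiles over the 4 groups were compared to find the genes most like each member that passed the mark, by the Euclidean distance of centred log2(FPKM + 1) values among 7777 genes with a mean of at least 5 FPKM. With 4 points per profile this is a description. GBE1, CERCAM and INPP5A were nearest to PHGDH (distances 0.14 to 0.15), and TPCN1, LRRC8C and TNRC18 to PSAT1 (0.11 to 0.12). CERS1, GPT2 and GAL were nearest to SLC7A5 (0.25 to 0.28), so that a gene of the ATF4 target list stands among the 3 for that member alone. RAP2A, MTA3 and GINS2 were nearest to TRIB3, LAT2, WDR54 and IQGAP2 to ASNS, JAG1, EEF1B2 and MPZL1 to SHMT2, and SLC25A23, ISOC1 and PRSS21 to SLC3A2. Among the members themselves ATF4 and PSPH, which both hardly moved, were the closest pair (0.16), followed by SHMT2 and SLC3A2 (0.27).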

How the data were processed

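RNA of 8 NB4 samples in 4 groups was sequenced from TruSeq libraries, per the labels' protocols. The deposited FPKM come from the authors' own pipeline of TopHat (on hg19), Cufflinks and Cuffdiff, per the submitters' processing notes (versions and the way samples were combined are not given in the sources used here). Each table holds 65986 models. Of 41159 RefSeq accessions 96.8% were matched to symbols of a GRCh38.p14 gene table, used for names. The models of each symbol were summed, bounds included, and log2((FPKM + 1)/(FPKM + 1)) was computed with Python 3.11.15 and pandas 2.3.3, after a check on simulated data. Fragment numbers are not given, so only relative depth is known, and no interval between samples can be had. Both titles of shScr ATRA samples also say vehicle, and their group follows the sample descriptions, which name RA, and the treatment field. The members and lists were chosen with earlier results of these data known. Named list genes are those with the largest changes, up to 4 per list and comparison, past the mark and at 5 FPKM or more in either group of the comparison; others (TRIB1, TRIB2, DDIT3, CHAC1, GLDC and AMT) were named after their values were seen. A total of 10 alternatives were planned, and 2 were added after the data were seen (ratios without a pseudocount, and median-of-ratios scaling over compared genes).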

Additional observations from a re-analysis of the deposited data

Results flagged for a closer look

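ATF4 had log2 ratios of ATRA to vehicle of opposite sign in the 2 lines, 0.057 in shScr and −0.22 in shTFEB cells. With 1 value per group the difference was not tested, and both values lie far from the 2-fold mark.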

How the results depend on the processing

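No paired analysis was possible because the tables hold 1 value per group and no value per sample; leaving out a replicate could not be run for the same reason. Over 12 alternatives, 582 of 590 member ratios kept their side of the 2-fold mark. Dropping the filter, a mean of at least 5 FPKM and models of OK status alone could not change these ratios (50 each). Nor could requiring bounds to be apart (40), so these unchanged ratios are no check. No ratio past the mark turned in sign, and among the others SHMT2, PSPH and SLC7A5 did, as given with their values. The count of members that fell was 4 or 5 in shScr cells and 5 to 7 in shTFEB cells under every alternative run, and no member passed between the lines. In shTFEB cells SLC3A2 missed the mark with a pseudocount of 5 FPKM (−0.98) and after median-of-ratios rescaling (−0.96, or −0.89 over compared genes, where SHMT2 was at −0.95), and in shScr cells ASNS passed it with 0.1 FPKM or no pseudocount (−1.02 in both). Median-of-ratios rescaling over compared genes shifted the median of all genes by 0.15 and 0.13 in the ATRA comparisons and gave 1603 higher and 1259 lower genes in shScr cells (56.0% higher, and 45.2% without it); relative to that median the members stood at −0.77 and −1.02, and at −0.80 and −1.03 without rescaling. For the 123 list genes, a pseudocount of 5 FPKM left 9 higher genes in shTFEB cells under ATRA (14 at 1 FPKM), and between the lines 0 under vehicle (2) and 3 under ATRA (6). A mean of at least 5 FPKM left 1 higher gene under vehicle, and with a pseudocount of 0.1 FPKM or none 1 gene was lower under ATRA. The cause was not tested. Over all genes, a pseudocount of 5 FPKM cut the counts of higher and lower genes from 1384 and 1676 to 873 and 949 in shScr cells, from 1270 and 1159 to 795 and 582 in shTFEB cells, from 117 and 87 to 70 and 48 under vehicle, and from 295 and 175 to 170 and 101 under ATRA (difference of the responses: from 206 to 126 lower); with 0.1 FPKM or none 211 or 199 were higher under vehicle. Under vehicle the counts were 65 and 37 with coding models alone, 67 and 52 at a mean of at least 5 FPKM, and 72 and 50 where bounds also had to be apart. Coding models alone gave 109 lower under ATRA and 176 higher and 117 lower in the difference (268 and 206), and the mean of 5 FPKM gave 110 and 127 lower. Without a filter 22627 symbols were compared, and 7.54% and 5.33% were lower under ATRA in shScr and shTFEB cells. All values of the 10 genes lie at or above 10.4 FPKM.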

Other observations

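Of 31 other ATF4 targets of the list with a RefSeq promoter window, 15 held the C/EBP-ATF core TGATGNAA, among them CHAC1, ATF3, SLC1A4, SLC7A1 and the synthetase genes CARS1, GARS1, AARS1, MARS1, NARS1 and TARS1, where 2.51% of compared genes with a window do. The list was drawn from known targets, so that share is a description of the list. Of the 15, 13 were compared. In shScr cells 2 of them fell (SLC1A4 and SLC7A1) and 0 rose, with log2 ratios of ATRA to vehicle from −1.95 (SLC1A4) to 0.95 (ATF3). In shTFEB cells 1 fell (SLC1A4) and 0 rose, from −2.43 (SLC1A4) to 0.73 (ATF3). Among all compared genes 15.2% fell and 12.5% rose in shScr cells, and 10.5% fell and 11.5% rose in shTFEB cells. Genes of the list outside the named-gene rule were named after their values were seen.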
